A study of Mus musculus with 26 samples.

Results

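St6galnac2 and BC018473 are neighbouring genes on mouse chromosome 11 whose transcripts were abundant in some libraries of leukaemic stem cells and close to absent in others. The rows of the read count table bearing these symbols were taken, which gave 2 of 24091 genes. The pair was chosen for this on and off pattern over all 26 libraries, so their levels are given as a description with no test. The tests below concern their neighbours on the chromosome and the other genes of the same glycan pathway.

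St6galnac2 codes for a sialyltransferase of the Golgi. It adds sialic acid, in an alpha-2,6 linkage, to the N-acetylgalactosamine at the base of mucin-type O-glycans. These are sugar chains held on serine and threonine residues of secreted and surface proteins. Such chains are built in steps, from a polypeptide N-acetylgalactosaminyltransferase (Galnt family), through core enzymes such as C1galt1 and its chaperone C1galt1c1, to capping by sialyltransferases, which draw on CMP-sialic acid made by Gne and Cmas and carried into the Golgi by Slc35a1. On blood cells, sialylated O-glycans decorate selectin ligands and mucin-like proteins of the cell surface. BC018473 is named by a cDNA clone, and RefSeq classes it as a long non-coding RNA.

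The RNA came from sorted LSK cells (Lin-Sca-1+c-Kit+, the bone marrow fraction that holds stem and multipotent progenitor cells) of C57BL/6 mice with SCLtTA/BCR-ABL, a transgenic model of chronic myeloid leukaemia (CML) that every group carried, including the controls. The study asked how loss of Spred1, an inhibitor of RAS-ERK signalling, alters these cells. Global KO mice (6 libraries) carried the knockout throughout the body, and Spred1 wt mice (5) were their controls. The HSC KO group (5; Spred1 deleted with Mx1-cre) and its HSC wt control (5) both received 7 doses of 250 µg poly(I:C), an interferon inducer, intraperitoneally every 2 days. The EC KO group (5) carried an endothelial deletion, and its labelled control, EC wt, was not analysed here, so Spred1 wt was used in its place. The age of the mice, the Cre line of the endothelial deletion and whether the groups other than HSC KO and HSC wt received poly(I:C) are not given in the sources used here. Library numbers below only name the libraries of a group, and each library was read as 1 mouse.

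In mm10 the count table places St6galnac2 at chr11:116676705-116694660 on the minus strand and BC018473 at chr11:116752167-116757883 on the plus strand, with 57.5 kb and no whole gene of the table between them. The genes point away from each other, since the end of St6galnac2 nearest to BC018473 is its 5′ end. In GENCODE M21 (GRCm38) the longest St6galnac2 transcript has 9 exons, and BC018473 is of gene type antisense with 4 transcripts and 4 exons in the longest. The table draws St6galnac1, a paralogue of St6galnac2, as a minus-strand model that covers all 5717 bases of BC018473. GENCODE divides that model into a pseudogene, Gm11735, and a shorter St6galnac1, and neither overlaps BC018473. The start of the coding sequence of the longest St6galnac2 transcript (bases 311 to 430 of the transcript, start codon in capitals) and the first 120 bases of the longest BC018473 transcript, which has no annotated coding sequence, are shown to identify the molecules counted, as read from GENCODE:
St6galnac2: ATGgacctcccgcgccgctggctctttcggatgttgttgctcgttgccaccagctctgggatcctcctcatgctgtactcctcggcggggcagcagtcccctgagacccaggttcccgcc
BC018473: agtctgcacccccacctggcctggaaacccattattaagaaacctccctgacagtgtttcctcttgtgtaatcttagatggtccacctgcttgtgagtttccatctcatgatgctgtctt

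The transcripts of the members share little sequence with other genes. Of the 7033 different 50-base words in St6galnac2 transcripts, 448 (6.37%) also occur in another gene's transcripts, and those lie on the opposite strand in the neighbour 1810032O08Rik, whose annotated exons overlap St6galnac2 exons by 497 bases. None of the 5515 words of BC018473 transcripts occurs in another gene. The longest exact run that this St6galnac2 transcript shares with a St6galnac1 transcript is 14 bases (positions 1130 to 1143):
shared run: ctgcacccagactt

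Total counts lay between 14816071 and 26714325 per library, and levels are CPM, read counts relative to library sizes scaled by TMM, a factor that evens out differences in composition. As a check of the labels, Spred1 was measured at 114 ± 20.7 CPM in the Spred1 wt libraries (SD, n = 5), 32.6 ± 7.35 under the global knockout (n = 6) and 70.3 ± 11.4 under the endothelial one (n = 5); the Mx1-cre groups gave 104 ± 4.90 CPM without and 35.4 ± 7.28 with the deletion (n = 5 each). Global KO 2 had the highest Spred1 level of its group, 44.5 CPM, which was below every Spred1 wt library. Global KO 2 also stood apart in mast cell transcripts: the summed level of 9 mast cell marker genes was 11176 CPM there and between 712 and 2138 CPM in the other global KO libraries. Elsewhere this sum reached from 440 to 4320 CPM (EC KO), 3051 to 5698 (HSC wt), 480 to 11290 (HSC KO) and 1917 to 14842 (Spred1 wt). Other marker sums set global KO 2 apart from its group too. It was highest for megakaryocyte markers (418 CPM, the rest 232 to 300) and lowest for B cell (16.4 CPM) and T and NK cell markers (1.29 CPM). The summed level of 10 LSK markers stayed between 2361 and 3854 CPM over all libraries, and no mast cell or LSK marker was at 0 throughout a group. Every library of global KO and of Spred1 wt held Y-linked transcripts, while Xist of at least 500 CPM, the mark of female cells, was found in 3 of 5 HSC KO, 2 of 5 HSC wt and 2 of 5 EC KO libraries. EC KO and HSC wt, with libraries of both sexes, were thus compared with a Spred1 wt group that was male throughout; the part of sex in those comparisons was not tested.

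St6galnac2 was present in 5 of the 6 global KO libraries. In global KO 1 to 6 its counts were 168, 0, 232, 249, 236 and 119, which is 8.73, 0, 12.5, 12.4, 13.1 and 7.18 CPM. In Spred1 wt 1 to 5 the counts were 1, 0, 3, 1 and 0. HSC KO 1 to 5 held 1, 1, 1, 2 and 1 counts, and HSC wt 1 to 5 held 1, 2, 0, 2 and 3. Only global KO 2, with no count, overlapped the other groups. For a count of 0 a limit of 3 counts was used, or 0.194 CPM in global KO 2, where the 95% Poisson interval reaches 0.238 CPM. The measured levels of the other 5 global KO libraries were 37.0-fold to 67.6-fold above the 3-count limit. Such limits and all intervals below cover counting error only. In bulk RNA, fewer cells with the transcript and less of it per cell cannot be told apart.

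EC KO held a low number of St6galnac2 counts that was uneven over its libraries. EC KO 1 to 5 had 0, 1, 9, 6 and 9 counts. EC KO 3, 4 and 5 reached 0.438, 0.322 and 0.378 CPM, and their 95% Poisson intervals (0.2001 to 0.831, 0.118 to 0.69996 and 0.173 to 0.717 CPM) overlap that of EC KO 2, which reaches up to 0.262 CPM. The interval of EC KO 1 ends at 0.154 CPM, below the lower bounds of EC KO 3 and EC KO 5. EC KO 3, 4 and 5 also had the lowest mast cell sums of their group, 440, 561 and 622 CPM, against 3715 and 4320 CPM in EC KO 1 and 2. The same libraries had the highest macrophage marker sums of their group, 280, 207 and 266 CPM, against 120 and 85.0 CPM. They were also highest in the sums of neutrophil, erythroid, plasma cell, B cell, T and NK cell and endothelial markers. The part of these differences in the St6galnac2 counts was not tested. In these 3 libraries no BC018473 read was counted.

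BC018473 had the same on and off pattern at a higher level. Its counts in global KO 1 to 6 were 1872, 0, 1607, 1772, 1875 and 1161, or 97.2, 0, 86.4, 87.9, 104 and 70.1 CPM. Every library of Spred1 wt, HSC KO and EC KO had 0 counts, and HSC wt 1, 4 and 5 had 1 count each. The measured levels of the 5 global KO libraries with counts were thus 361-fold to 537-fold above the 3-count limit of global KO 2. The global KO libraries with the members had mast cell sums of 712 to 2138 CPM, and every library above 2138 CPM was below 1 CPM for both. Spred1 wt 1 (1917 CPM), HSC KO 1 (480 CPM) and EC KO 3 to 5 were not above 2138 CPM and were also below 1 CPM for both. Over the 26 libraries the mast cell sum had a Spearman rho of -0.518 with St6galnac2. For other marker sums rho was 0.466 (erythroid), 0.451 (B cell), 0.410 (macrophage), 0.394 (T and NK cell) and -0.380 (megakaryocyte). It was 0.216 for endothelial, 0.157 for plasma cell, -0.127 for neutrophil and 0.118 for LSK markers. The part of mast cells or of other cell types in the on and off pattern was not tested. No library lay between the levels. For BC018473 the lowest of the high libraries was at 70.1 CPM and the highest of the low ones at 0.0528 CPM, which is 1 count (95% Poisson interval up to 0.294 CPM). For St6galnac2 these values were 7.18 CPM and 0.438 CPM, which is 9 counts, and stood 16.4-fold apart.

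**Figure D1:**
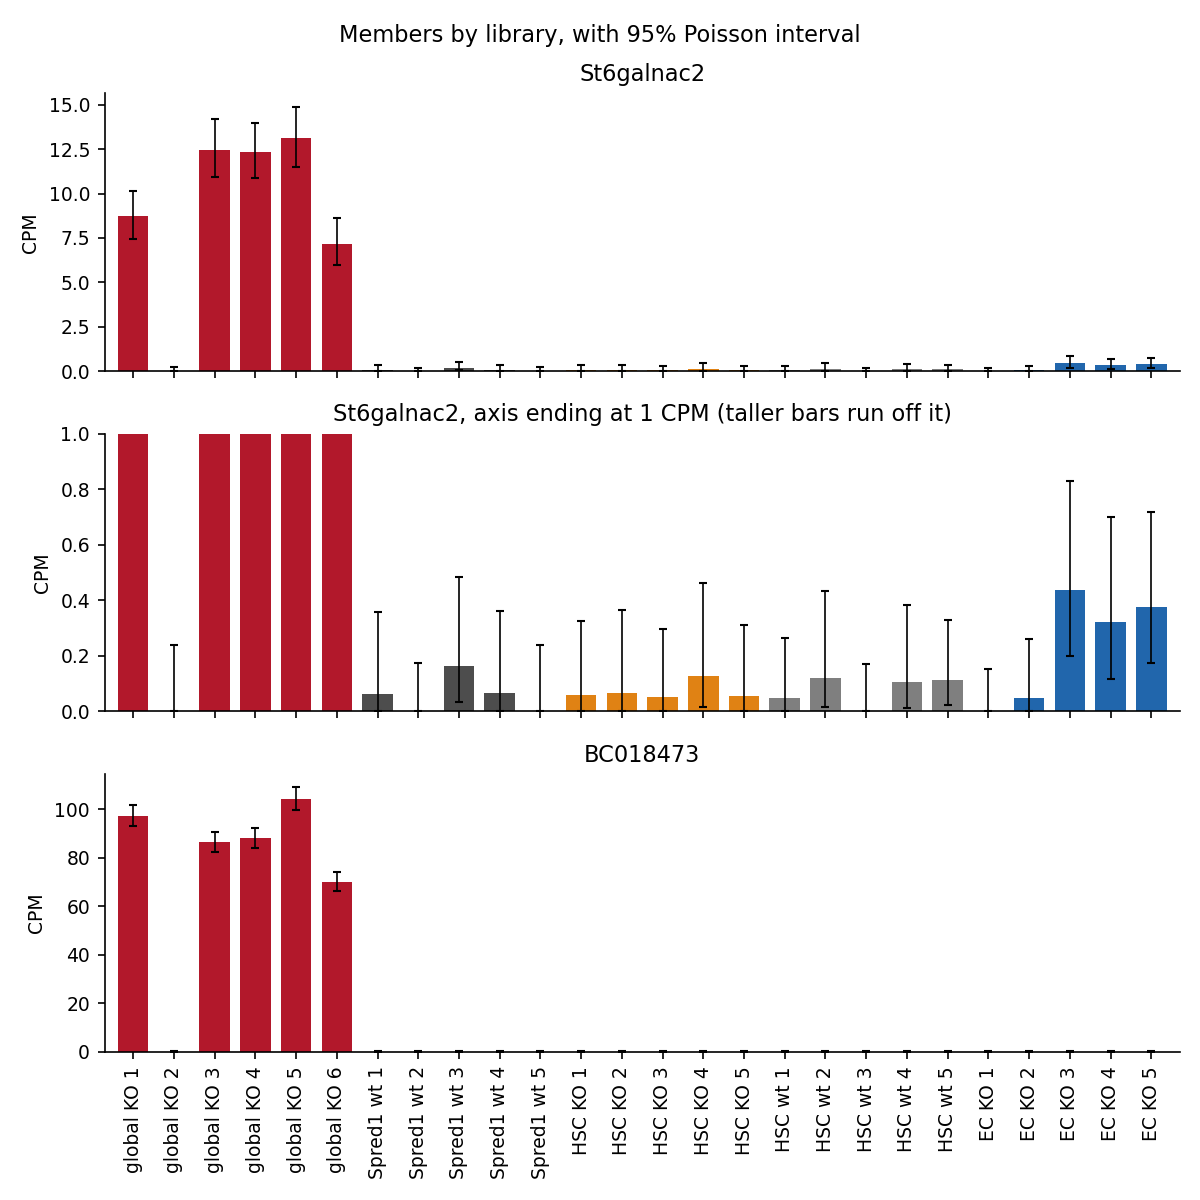
CPM of St6galnac2 (top; middle, the same values on an axis that ends at 1 CPM) and BC018473 (bottom) in each library, as bars from 0 with 95% Poisson intervals, coloured by group. Both genes are high in global KO 1, 3, 4, 5 and 6 and at 0 in global KO 2, and EC KO 3 to 5 hold small bars for St6galnac2 with none for BC018473.

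At a level of 1 CPM, 5 libraries held both genes, 0 held only 1 of them and 21 held neither. All 5 were global KO libraries, so the count of libraries above the level by group was 5 of 6 in global KO and 0 of 5 in each of the other groups. Across those 21 libraries, 44 St6galnac2 and 3 BC018473 counts were found in all. Over the 26 libraries the members' log2 CPM had a Pearson r of 0.964 and a Spearman rho of 0.616, and an r of 0.914 with group means subtracted. These values describe the pattern used to choose the pair.

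**Figure D2:**
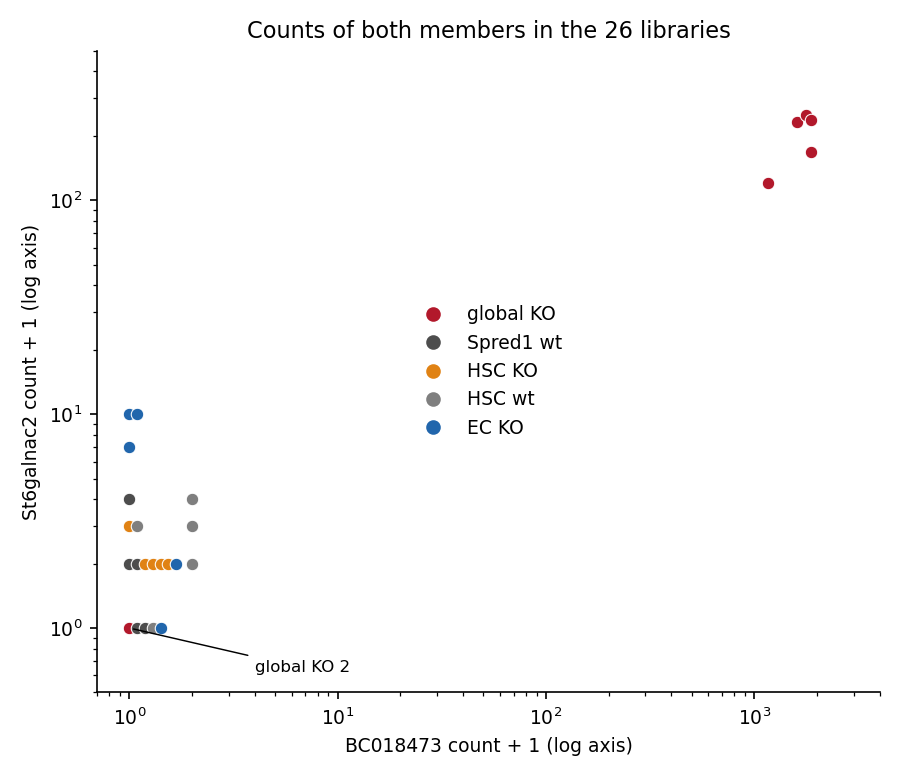
Count + 1 of BC018473 (x) against count + 1 of St6galnac2 (y), both on log axes, 1 point per library, coloured by group; points that coincide are shifted to the right. 5 global KO libraries lie at the upper right and the other 21 libraries, global KO 2 among them, at the lower left.

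By group mean, St6galnac2 was highest in global KO (8.97 ± 4.99 CPM, SD, n = 6), followed by EC KO (0.237 ± 0.1997, n = 5), HSC wt (0.0771 ± 0.0519), HSC KO (0.0723 ± 0.0317) and Spred1 wt (0.0589 ± 0.0677). The last 3 lay within each other's SD. BC018473 was at 74.3 ± 38.2 CPM in global KO and at 0.0275 ± 0.0257 in HSC wt, and it was not counted in the remaining groups. The SDs in global KO are wide because they include the library at 0.

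Within global KO the order of the libraries differed between the members. For St6galnac2, libraries 5, 3 and 4 had overlapping intervals, and libraries 1 and 6 lay below all 3 (7.46 to 10.2 and 5.95 to 8.60 CPM, against 10.9 CPM at the lowest bound of library 4). For BC018473, library 1 stood near the top instead (92.9 to 102 CPM), next to library 5 (99.5 to 109 CPM). Library 6 was lowest for both, with BC018473 at 66.1 to 74.2 CPM. BC018473 outnumbered St6galnac2 in counts by 11.1 (95% interval 9.52 to 13.05) in global KO 1 and by 9.76 (8.08 to 11.8) in global KO 6. In global KO 3, 4 and 5 the ratio was 6.93 (6.04 to 7.95), 7.12 (6.23 to 8.13) and 7.94 (6.94 to 9.10). The ratio in global KO 1 therefore lay beyond counting error from those 3, which overlapped one another.

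Divided by the gene lengths in the table (2.024 kb for St6galnac2 and 3.355 kb for BC018473), the levels were 3.55 to 6.48 CPM per kb for St6galnac2 in the 5 global KO libraries with counts, and 20.9 to 31.0 for BC018473. Per kb, BC018473 thus stood 4.18 to 6.72 times above St6galnac2. Ranks were taken per kb within each library, among the 18794 genes with a count in any of the 26 libraries. St6galnac2 ranked at the 49.4 to 57.9 percentile and BC018473 at the 80.6 to 86.7 percentile in those 5 libraries.

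Genes around the pair served as a reference. Within 1 Mb of the span of the members the table lists 57 other genes, of which 54 had counts and 43 passed the filter on low counts and were tested. In global KO against Spred1 wt, 0 of 43 passed an adjusted p of 0.05 (edgeR quasi-likelihood F-test, Benjamini-Hochberg over 13379 genes), where 0.0747% of all genes passed (0.0224% higher and 0.0523% lower). At an unadjusted p under 0.05 there were 6 of 43 (14%) against 5.53% of all genes. The median log2 difference of the 43 was 0.02, beside 0.01 over all genes tested. Within 250 kb, 0 of 11 tested neighbours passed. Of these 11, 4 (36.4%) had an unadjusted p under 0.05, 9 were higher in global KO, and the median was 0.06. Next to St6galnac2, 1810032O08Rik, a non-coding transcript gene on the other strand (907 bases away in the table's models, overlapping in those of GENCODE), was at 16.7 ± 4.39 CPM in the controls (n = 5) and 22.1 ± 4.81 in the knockout (n = 6; log2 difference 0.40, SE 0.16, edgeR adjusted p = 0.790). Rhbdf2, a catalytically inactive relative of rhomboid proteases, lay at 32.1 ± 5.90 and 30.9 ± 4.64 CPM (0.06, SE 0.13, adjusted p = 0.999).

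Of the 54 neighbours with counts, 3 had an r of at least 0.5 to St6galnac2, namely St6galnac1 (0.933), Cygb (0.910) and Mxra7 (0.679). To BC018473 these 3 reached 0.979, 0.940 and 0.695. Ube2o (0.560) and Gm11733 (0.526, with 16 counts over the 26 libraries) were also at or above 0.5 to BC018473. St6galnac1 had 11, 1, 6, 9, 6 and 5 counts in global KO 1 to 6 and none in the remaining 20 libraries. Its counts came to 0.320% to 0.588% of those of BC018473, over which its model in the table extends on the opposite strand, and whether reads were counted by strand is not given in the sources used here, so they cannot be assigned to St6galnac1 with certainty. Cygb, the gene of the globin cytoglobin, had 16, 1, 10, 12, 15 and 7 counts in global KO and 0 to 3 in each of the rest. Both genes had 1 count in global KO 2, fewer than in any other global KO library. Neither passed the filter on low counts, and tested without it they did not pass (edgeR adjusted p = 0.0856 for Cygb and 0.117 for St6galnac1).

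On the side of BC018473, Mxra7, a matrix-remodelling associated gene 45517 bases away, stood at 1.61, 0.840, 1.61, 2.58, 2.22 and 1.63 CPM in global KO 1 to 6. The 5 Spred1 wt libraries, in the order of their numbers, were at 0.449, 0.427, 0.331, 1.104 and 1.04 CPM. All global KO libraries other than global KO 2 were above every Spred1 wt library. The log2 difference was 1.40 (SE 0.38), and the edgeR adjusted p of 0.288 did not pass. Over 18 alternative settings its adjusted p (edgeR or DESeq2) ran from 0.0693 to 0.927, and it passed in none. In HSC KO against HSC wt its log2 difference was -0.02 (SE 0.39), and the difference between both effects, 1.42 (SE 0.55), had an edgeR adjusted p of 0.9998. Ube2o, a ubiquitin-conjugating enzyme gene, ranged from 46.9 to 53.6 CPM in global KO and from 37.9 to 49.9 in Spred1 wt (log2 difference 0.25, SE 0.07, edgeR adjusted p = 0.295). Its lowest global KO library was global KO 2. Jmjd6 (0.04, adjusted p = 0.999) and Mettl23 (-0.23, adjusted p = 0.822) did not pass either.

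**Figure D3:**
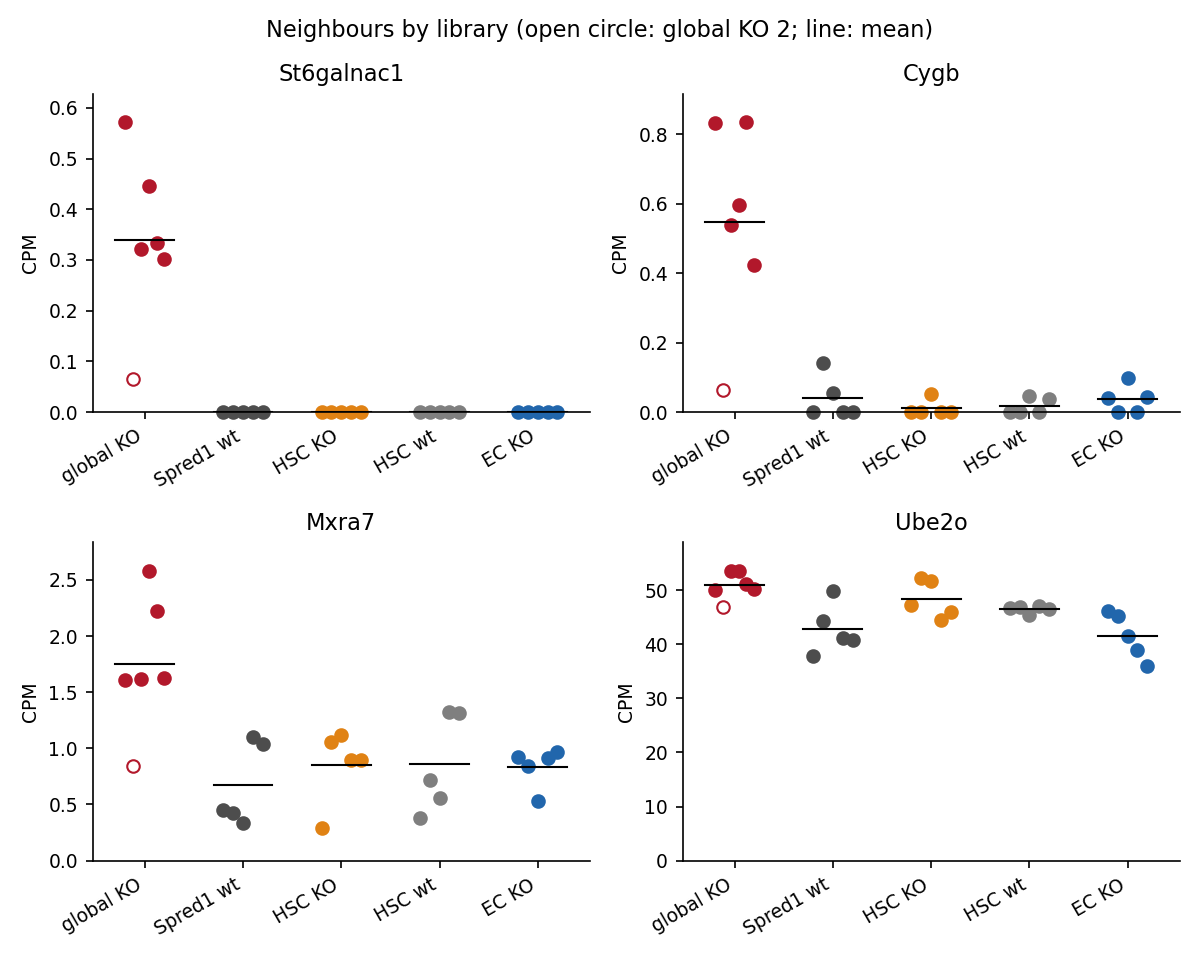
CPM of St6galnac1, Cygb, Mxra7 and Ube2o in each library by group, with a line at the group mean; global KO 2 is the open circle. For St6galnac1, Cygb and Mxra7 global KO 2 lies apart from the rest of its group and near the other groups. Ube2o is at 36.0 to 53.6 CPM in all libraries, and global KO 2 is again the lowest of its group (46.9 CPM, the rest 50.1 to 53.6).

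In the other comparisons both members were below 1 CPM in all libraries. In HSC KO against HSC wt 0 of 43 neighbours passed, where 0.0224% of all genes did. Of the 43, 2 had an unadjusted edgeR p under 0.05 (4.65%, beside 2.16% of all genes). In HSC wt against Spred1 wt 0 of 43 passed, where 0.0299% of all genes did. Of the 43, 3 had an unadjusted edgeR p under 0.05 (6.98%, beside 6.35% of all genes). In EC KO against Spred1 wt 4 of 43 passed (9.30%), close to the 7.96% of all genes (3.49% higher and 4.47% lower). Srsf2, a splicing factor gene, rose from 439 ± 20.98 to 536 ± 42.3 CPM (n = 5 each; log2 difference 0.29, edgeR adjusted p = 0.00928, higher than all controls in 5 of 5 libraries). Tsen54, a tRNA splicing endonuclease subunit, rose by 0.24 (edgeR adjusted p = 0.0378, 4 of 5). Sec14l1, a gene of the SEC14 lipid-binding family, fell to 48.8 ± 4.96 CPM, against 76.9 ± 18.9 in the controls (log2 difference -0.65, edgeR adjusted p = 0.00968, 5 of 5), and Trim47, a tripartite motif gene, fell by 0.73 (edgeR adjusted p = 0.04004, 4 of 5). With HSC wt as the control, Srsf2 (adjusted p = 0.166), Trim47 (0.153) and Tsen54 (0.115) did not pass.

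**Figure D4:**
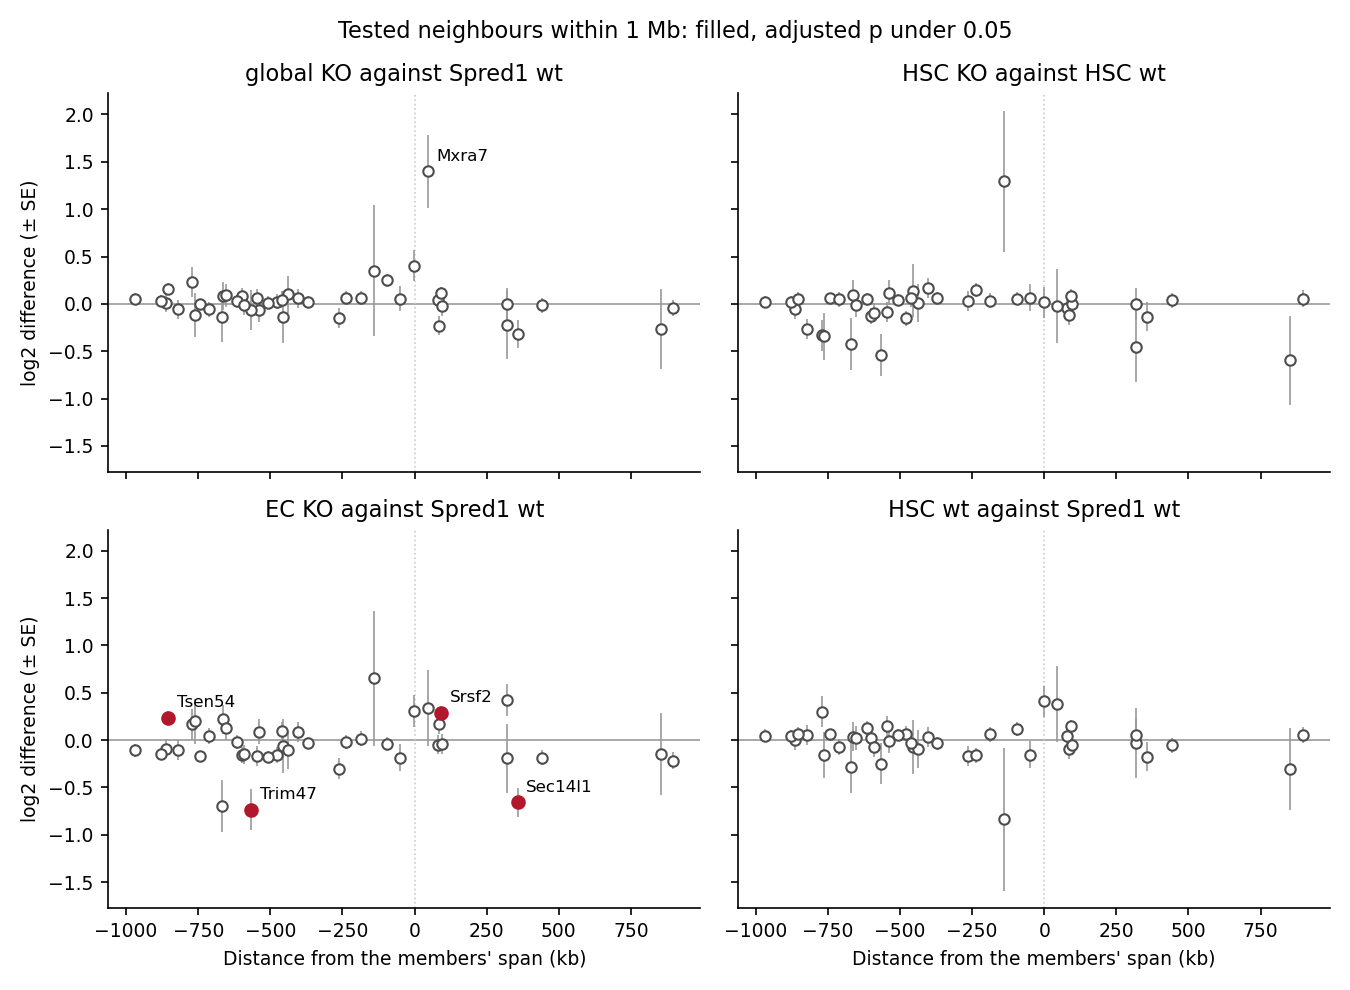
Log2 difference with SE of the 43 tested neighbours against their distance in kb from the span of the members (negative toward lower coordinates), in 4 comparisons; filled points have an edgeR adjusted p under 0.05. Filled points appear only in EC KO against Spred1 wt (Srsf2, Tsen54, Sec14l1 and Trim47), and Mxra7 is the highest point in global KO against Spred1 wt.

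Among the relatives of St6galnac2 that also act on N-acetylgalactosamine, St6galnac4 and St6galnac6 were the most abundant in every group. In global KO, levels per kb were 11.1 to 15.7 CPM for St6galnac4, 8.15 to 10.03 for St6galnac6, 1.08 to 2.63 for St6galnac3 and 0.130 to 0.339 for St6galnac5. The 5 global KO libraries with St6galnac2 counts (3.55 to 6.48 CPM per kb) thus lay between the ranges of St6galnac6 and St6galnac3. In Spred1 wt the ranges were 10.5 to 12.7, 7.94 to 10.4, 1.93 to 2.84 and 0.0829 to 0.391 CPM per kb in the same order, with St6galnac2 at 0.0817 or less. St6galnac1 stayed below 1 CPM in all libraries.

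None of these relatives passed a test in global KO against Spred1 wt. The log2 difference of St6galnac3 was -0.28 (SE 0.17, edgeR adjusted p = 0.917), that of St6galnac4 0.11 (SE 0.10, adjusted p = 0.976), that of St6galnac5 0.18 (SE 0.48, adjusted p = 0.999) and that of St6galnac6 0.04 (SE 0.07, adjusted p = 0.999). St6gal1, which sialylates N-glycans, stood at 18.3 ± 5.34 CPM against 20.8 ± 1.45 (adjusted p = 0.992). St3gal1, which caps core 1 O-glycans, stood at 165 ± 12.8 against 165 ± 18.8 CPM (adjusted p = 0.999). C1galt1 (log2 difference 0.02), C1galt1c1 (-0.13), Gcnt1, the core 2 branching enzyme (-0.25), Gne (0.02), Cmas (0.06), Slc35a1 (0.06) and the lysosomal sialidase Neu1 (-0.19) had adjusted p from 0.917 to 0.999. Of these lists, 64 of 78 listed genes of sialylation and O-glycans, St6galnac2 left out, were tested, and 0 passed in global KO (5 had an unadjusted p under 0.05, 7.81%, beside 5.53% of all genes). The 64 were 15 sialyltransferases, 16 genes of mucin-type O-glycan synthesis, 7 of sialic acid supply, 5 of its removal, 11 O-glycan carriers such as Spn and Selplg, and 10 sialic acid readers such as Siglecs and selectins. Their median log2 difference in this comparison was -0.10, 0.02, 0.03, -0.04, -0.01 and 0.29 in that order, beside 0.01 over all genes tested.

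In HSC KO against HSC wt 0 of 64 passed, where 0.0224% of all genes did. Of the 64, 6 had an unadjusted edgeR p under 0.05 (9.38%, beside 2.16% of all genes). In HSC wt against Spred1 wt 0 of 64 passed, where 0.0299% of all genes did. Of the 64, 5 had an unadjusted edgeR p under 0.05 (7.81%, beside 6.35% of all genes). St6gal1 was at 11.6 ± 0.677 CPM in HSC wt and 20.8 ± 1.45 in Spred1 wt, lower in every HSC wt library (log2 difference -0.84, SE 0.23, edgeR adjusted p = 0.357), and it passed only in a fit of those 2 groups alone (adjusted p = 0.00508).

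In EC KO, where St6galnac2 was at 0.438 CPM or less, 7 of the 64 other pathway genes passed against Spred1 wt (10.9%), beside 7.96% of all genes. Slc35a1, the CMP-sialic acid transporter, rose from 23.7 ± 2.998 to 38.0 ± 3.99 CPM (n = 5 each; log2 difference 0.68, SE 0.09, edgeR adjusted p = 8.11e-05). All 5 EC KO libraries were above all Spred1 wt libraries. Galnt6 fell from 226 ± 17.1 to 153 ± 17.6 CPM (-0.56, SE 0.11, edgeR adjusted p = 0.00174), again with no overlap. Galnt3 (0.59, adjusted p = 0.0271), Galnt12 (0.39, 0.0103) and Cmas (0.19, 0.0435) rose. St3gal2, a sialyltransferase of O-glycans and glycolipids (-0.74, adjusted p = 0.0166), and Gne (-0.23, 0.0299) fell. Over 18 alternative settings Cmas failed in 14 (adjusted p up to 0.2001), Galnt3 in 7 (0.0943), Gne in 5 (0.130), St3gal2 in 3 (0.113) and Galnt12 in 1 (0.0609), while Slc35a1 and Galnt6 passed in all 18. By list, 1 of 15 sialyltransferases fell, 2 of 16 genes of O-glycan synthesis rose and 1 fell, 2 of 7 genes of sialic acid supply rose and 1 fell, and no gene of the other lists passed. The median log2 difference of the 64 genes was -0.07, beside 0.02 over all genes tested. Mast cell sums also differed within and between these groups (440 to 4320 CPM in EC KO and 1917 to 14842 in Spred1 wt), and their part in these values was not tested.

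**Figure D5:**
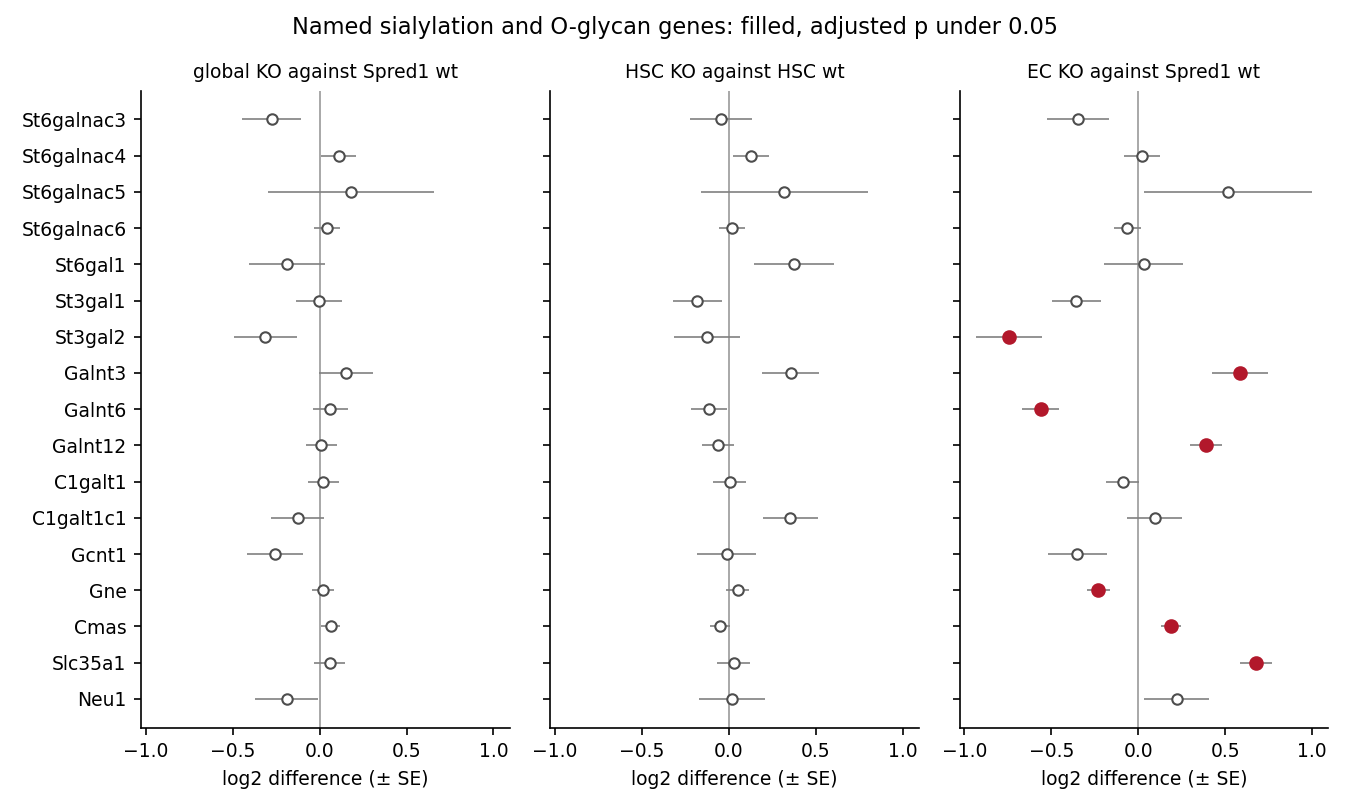
Log2 differences with SE of 17 named sialylation and O-glycan genes in 3 comparisons; filled points have an edgeR adjusted p under 0.05. Filled points appear only in EC KO against Spred1 wt, with Slc35a1, Galnt3, Galnt12 and Cmas higher and St3gal2, Galnt6 and Gne lower.

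Among the 10 tested genes whose log2 CPM followed St6galnac2 most closely over the 26 libraries were Zfp534 (Pearson r 0.757), Dhrs3 (0.738), Tpm3 (0.708), 5830417I10Rik (0.683), Mxra7 (0.679), Rdh11 (0.662), Aagab (0.654), Fut7 (0.643) and Ephb2 (0.640). Among the 10 closest to BC018473 were Zfp534 (0.765), Dhrs3 (0.716), Invs (0.715), Mxra7 (0.695), Tgif2 (0.692), Trim16 (0.685), Tpm3 (0.673), 5830417I10Rik (0.671) and Rdh11 (0.663). These values share the libraries and the depths of the members and carry no test. Of the 10 genes closest to St6galnac2, 4 stayed among the 10 when global KO 4 or global KO 5 was left out, and 0 when group means were subtracted. Of the genes named here, Mxra7 and Trim16 lie on chromosome 11, and Trim16 is 53.8 Mb away.

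The likeness came in different ways. Zfp534, a zinc finger gene on chromosome 4, stood at 0.104, 0.452, 4.14, 3.27, 2.50 and 2.96 CPM in global KO 1 to 6 and at no more than 0.714 CPM elsewhere, so that global KO 1, where both members were high, was low. Dhrs3, a retinaldehyde reductase gene on chromosome 4, ran from 42.7 CPM in global KO 2 to 86.4 CPM in global KO 3 and from 44.7 to 58.9 CPM in Spred1 wt. 5830417I10Rik, a gene on chromosome 3, fell into 2 levels: 9 libraries lay between 24.5 and 32.1 CPM and 17 between 3.50 and 7.11 CPM. The 9 were global KO 1, 3, 4, 5 and 6, Spred1 wt 1 and 2, and EC KO 4 and 5. Both members were above 1 CPM in 5 of the 9 and below it in 4. Global KO 2, at 6.20 CPM, was with the lower libraries for this gene as it was for the members.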

How the data were processed

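For every gene the deposited table gives raw counts in the 26 libraries, a position and a gene length in kb. Tools named in the submitters' processing notes are STAR 2.6.0, HTSeq 0.6.0, bcl2fastq 2.18.0.12 and edgeR 3.28.1, and the build is mm10; the annotation and strand setting are not given in the sources used here. All 26 libraries entered 1 fit of 5 group means (edgeR 4.0.16 in R 4.3.3: TMM, filterByExpr with a minimum count of 10, robust quasi-likelihood F-test, two-sided, 13379 genes tested, 21 residual degrees of freedom). Standard errors come from the same fit, and p-values measure the spread between libraries. Log2 CPM for correlations used a prior count of 2. Sequences and exons are from GENCODE M21. The genes named were both members, Spred1, the 3 nearest tested genes on each side, called neighbours and called list genes, 14 set pathway genes and the 10 genes most alike each member; Cygb, St6galnac1 and the levels of 5830417I10Rik were chosen after values were seen. A gene that this rule took is not reported here, though it stayed in every fit and count. The members and lists were chosen with earlier results of these data known. The fit was tested on simulated data. Alternatives were other normalizations and filters, DESeq2 1.42.0, fits of the compared groups, other windows and thresholds, and each library left out in turn. A gene model longer than 5 Mb was left out of the neighbours.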

Additional observations from a re-analysis of the deposited data

Results flagged for a closer look

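In 98 groups of libraries over 21 genes, 9 had a highest or lowest library whose gap to the next took up an unusually large part of the range of the group; chance gives about 1 in 20. Of the members, BC018473 was at 0 CPM in global KO 2, apart from the other 5 global KO libraries. The pair was chosen for being on in some libraries and off in others, so this flag follows from that choice. St6galnac2 was highest in HSC KO 4, at 0.128 CPM, which is 2 counts against 1 in the rest of the group. Where the rest of a group has equal counts, a step of 1 count is enough for such a flag.

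Among the neighbours, Mxra7 was lowest in HSC KO 1 (0.291 CPM) and in EC KO 3 (0.535 CPM), and Rhbdf2 was lowest in HSC KO 1 (18.8 CPM) and in HSC wt 1 (23.04 CPM). Sec14l1 was highest in global KO 2 (83.0 CPM), the library without the members. Ube2o was lowest in HSC wt 3 (45.4 CPM), in a group of small spread. Cygb was highest in HSC KO 3, at 0.0533 CPM, which is 1 count, the only one of its group.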

How the results depend on the processing

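No paired analysis was possible because the library numbers are names in accession order and pair no libraries across groups. The number of libraries above the level was 5 for both members at 0.5, 1 and 2 CPM and under other scalings; by more than 3 counts, St6galnac2 reached 8 libraries, EC KO 3, 4 and 5 being added. The 0 calls among neighbours in global KO ranged from 0 to 1 with a library left out. The 1 was Cygb without Spred1 wt 2, a fit in which 24 of 13448 genes passed. Spred1 wt 2 held 3 of the 4 Cygb counts of the controls. Cygb failed the filter in the main fit and passed it here through its global KO counts. It was also chosen after its values were seen, so no conclusion is drawn from this call. Of neighbours in EC KO, 4 in the text, DESeq2 called 8, a fit of the compared groups 1, a threshold of 0.1 gave 7, a window of 250 kb 1 and of 5 Mb 8, and leaving out a library 2 (without Spred1 wt 5, EC KO 3 or EC KO 4) to 10 (without EC KO 5). Of pathway genes in EC KO, 7 in the text, DESeq2 called 10, a fit of the compared groups 3, and a threshold of 0.1 gave 12, and leaving out a library 4 (without Spred1 wt 3 or EC KO 4) to 9. Over all genes in EC KO, 1065 of 13379 passed, DESeq2 called 1534 of 18791 and the fit of the compared groups 333 of 12975. Leaving out a library gave from 483 of 13450 (without EC KO 3) to 1880 of 13421 (without EC KO 5). The windows of 250 kb and 5 Mb held 11 and 162 tested neighbours. In HSC wt the fit of the compared groups called 1 pathway gene, and 1 of 12865 over all genes. Of called neighbours, Sec14l1 passed in all 18 alternatives, and Tsen54 failed in 10, Trim47 in 8 and Srsf2 in 2. Of the 10 genes most alike St6galnac2, 1 stayed by Spearman rho, 0 with group means subtracted and 4 (without global KO 4 or 5) to 10 with a library left out, among them 5 without Spred1 wt 1 and 6 without global KO 1, global KO 2 or EC KO 1. Where these counts moved, the cause was not tested. No called difference changed sign. Of 37 single-gene differences, 9 had both signs over the alternatives, none of them called in any; in global KO these were Rhbdf2 (-0.04 to 0.14) and Jmjd6 (-0.02 to 0.09). Over all genes in global KO, DESeq2 called 43 and the fit of the compared groups 4, where 10 passed. Depth limits the low libraries, where a member rests on 0 to 9 counts.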
